A study of Mus musculus with 24 samples.

Results

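Glycolysis and the response to low oxygen were followed through 38 genes in RNA-seq data from mouse fetal livers at embryonic day (E) 12.5. The genes were listed by name as glucose and lactate transporters (3), enzymes that prepare and split the hexose (10), enzymes of the energy-yielding triose steps (7), genes at the pyruvate branch (2), subunits and oxygen-dependent hydroxylases of the hypoxia-inducible factors, HIFs (4), and other hypoxia-inducible genes (12). All 38 were found among the 25361 genes listed.

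The study deleted the chromatin remodelers CHD4 and BRG1 (encoded by *Smarca4*) from endothelium with VE-cadherin-Cre and asked whether removal of BRG1 alters the liver defects caused by loss of CHD4. The 4 genotypes were controls (Cre-negative littermates that also carried floxed alleles of both genes), *Chd4-ECko* (*Chd4* fl/fl;Brg1 fl/+;VE-cadherin-Cre+), *Brg1-ECko* (*Chd4* fl/+;Brg1 fl/fl;VE-cadherin-Cre+) and *Brg1/Chd4-ECdko* (fl/fl for both genes, Cre+). Each single mutant was thus also heterozygous for the other floxed allele, the strains were on a mixed background, and VE-cadherin-Cre is also active in some blood cells. Livers were digested in the presence of transcription and translation inhibitors, and CD146 magnetic beads divided each cell suspension into a CD146+ fraction, called liver sinusoidal endothelial cells (LSECs), and the remaining non-EC fraction. With 3 libraries for each genotype and fraction, there were 24 in all. Expression is given as TPM (transcript abundance per unit of transcript length, scaled to a fixed total), and TPM triplets are listed in the order of replicates 1, 2 and 3.

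Glycolysis converts glucose to pyruvate, yields ATP without oxygen, and is the main energy source of endothelial cells. When oxygen is scarce, the prolyl hydroxylases no longer mark HIF alpha subunits for destruction, and the HIFs then bind DNA as a pair with ARNT and activate glucose transporters, glycolytic enzymes, lactate export and angiogenic factors. Some of these targets, the hydroxylases *Egln1* and *Egln3* among them, feed back on the pathway.

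The fractions were checked first. Summed TPM of 10 endothelial markers ranged from 914.2 to 1882 across LSECs but only from 29.8 to 65.6 across non-ECs, and all 10 were higher in control LSECs. The LSEC fraction was not pure: its libraries carried 890.0 to 1479 TPM of mesenchymal and stellate markers (53.5 to 182.9 TPM in non-ECs), and 3385 to 7821 TPM of hepatoblast markers in 11 libraries but 27520 TPM in LSEC *Brg1-ECko* replicate 1. No listed marker was at 0 in any library. In bulk RNA, fewer cells of a type and less RNA per cell cannot be told apart. Mitochondrial transcripts took 13.9% to 31.5% of TPM in LSECs and 2.33% to 7.69% in non-ECs. The targeted genes were not detectably lower: *Chd4* was at 284, 255 and 246 TPM in control LSECs and 223, 168 and 252 TPM in *Chd4-ECko* LSECs (log2 fold change -0.30, SE 0.17, adjusted p = 0.962, limma), and *Smarca4* was at 161, 144 and 134 TPM in controls and 157, 111 and 127 TPM in *Brg1-ECko* LSECs (log2 fold change -0.16, SE 0.17, adjusted p = 0.779, limma). TPM over the whole gene does not measure loss of a floxed exon, so these values do not check the genotypes, which are taken as labelled. Nothing in the labels ties the replicates to litters, and p-values measure the spread between these libraries.

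Because HIFs bind a short core sequence, the 250 bases upstream of each member's start (GENCODE canonical transcript, GRCm39) were searched for ACGTG and GCGTG on both strands. A core match was present in 24 of 38 members (63.2%) and in 8936 of 21605 protein-coding genes (41.4%). Members' windows also had a higher median GC content, 58.8% against 53.2%, and a match is a description of the sequence, not a bound site. The windows of the 5 members that passed the test in more than 1 mutant comparison are shown, 5′ to 3′ on the gene's strand, with matches in capitals. CACGTG reads as ACGTG on both strands and therefore counts as 2 overlapping matches. *Pfkp* (minus strand, chr13:6698971-6699220), *Egln1* (minus strand, chr8:125676866-125677115) and *Bnip3* (minus strand, chr7:138511254-138511503) are given in full. *Slc16a3* (plus strand, chr11:120839406-120839540) and *Ndrg1* (minus strand, chr15:66841836-66842052) are given for the stretch free of annotated exons, 135 and 217 bases.
Pfkp: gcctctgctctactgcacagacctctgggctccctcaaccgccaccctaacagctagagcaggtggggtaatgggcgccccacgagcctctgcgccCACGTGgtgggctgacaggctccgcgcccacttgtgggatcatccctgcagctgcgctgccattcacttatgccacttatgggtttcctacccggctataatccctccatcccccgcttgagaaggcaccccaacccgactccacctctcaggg
Slc16a3: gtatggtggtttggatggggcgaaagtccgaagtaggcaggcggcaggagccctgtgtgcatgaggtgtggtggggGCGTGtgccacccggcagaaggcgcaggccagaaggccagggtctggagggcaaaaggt
Egln1: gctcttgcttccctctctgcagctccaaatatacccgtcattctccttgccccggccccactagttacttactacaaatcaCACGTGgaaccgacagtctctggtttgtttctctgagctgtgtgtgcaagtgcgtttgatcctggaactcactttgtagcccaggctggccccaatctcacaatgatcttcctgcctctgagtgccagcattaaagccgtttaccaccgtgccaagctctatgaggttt
Bnip3: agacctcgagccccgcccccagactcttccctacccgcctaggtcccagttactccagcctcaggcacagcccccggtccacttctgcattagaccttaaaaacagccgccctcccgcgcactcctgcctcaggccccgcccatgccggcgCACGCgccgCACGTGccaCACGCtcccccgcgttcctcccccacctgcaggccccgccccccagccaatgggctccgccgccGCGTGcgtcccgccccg
Ndrg1: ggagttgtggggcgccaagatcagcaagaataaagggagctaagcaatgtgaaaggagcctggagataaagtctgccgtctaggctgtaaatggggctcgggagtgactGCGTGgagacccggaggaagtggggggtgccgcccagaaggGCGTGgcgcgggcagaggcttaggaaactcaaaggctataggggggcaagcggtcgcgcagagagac

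*Bnip3* held 5 matches, the nearest starting 17 bases before the start, whereas the CACGTG of *Pfkp* began 154 bases and that of *Egln1* 169 bases before it. *Slc16a3* held 1 match and *Ndrg1* held 3, of which 2 lie in the printed stretch. Among members that rose in double mutant LSECs, *Vegfa* and *Slc2a3* had no match in this window.

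In control livers *Ldha* had the highest mean level of the members in both fractions. In LSECs, *Ldha*, which converts pyruvate to lactate, was at 614, 846 and 643 TPM, *Pkm*, which makes pyruvate, at 602, 724 and 608 TPM, and the enolase *Eno1* at 560.2, 592 and 669 TPM. Their ranges overlapped in LSECs. *Eno1* is counted here without its near copy *Eno1b*, which was at 174, 310.4 and 24.4 TPM in these libraries. The order of *Ldha* and *Eno1* in LSECs therefore depends on whether the copies are counted together. In non-ECs, *Ldha* was at 934, 1072 and 931 TPM, above every other member in all 3 libraries. Next came *Eno1* at 664, 649 and 702 TPM, *Gapdh*, which oxidizes the triose, at 728, 570.4 and 654 TPM and the cytokine gene *Mif* at 679, 652 and 601 TPM, which overlapped, while *Pkm* was at 323, 335 and 292 TPM. The scarcest members of LSECs were the neuronal enolase *Eno2*, at 1.31, 1.57 and 1.17 TPM (0.196, 0.19 and 0.411 TPM in non-ECs), and *Pfkfb4*, at 2.23, 2.53 and 3.09 TPM. *Pfkfb4* and *Pfkfb3* make the sugar phosphate that activates phosphofructokinase.

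Between control LSECs and control non-ECs, members differed in both directions. Of 38 members, 12 were higher and 11 were lower in LSECs at an adjusted p under 0.05 (limma on log2(TPM + 1), n = 3 against 3), where 31.3% of all tested genes were higher and 35.8% lower. The members called, 60.5%, were thus near the background of 67.1% of all tested genes, and their median log2 difference was -0.21 against -0.09 over all genes. All 4 HIF subunits and hydroxylases were higher in LSECs, and 6 of 12 other hypoxia-inducible genes were higher and 2 lower. Of 7 triose enzymes, 2 were higher and 1 lower. Of the transporters 2 of 3, of the hexose enzymes 4 of 10, and both pyruvate-branch genes were lower, with none higher. Whether these groups of genes differed from each other was not tested.

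*Epas1*, the HIF alpha subunit enriched in endothelium, was at 35.5, 43 and 29.9 TPM in control LSECs and 1.62, 1.89 and 1.22 TPM in non-ECs (log2 fold change 3.84, SE 0.29, adjusted p = 2.67e-10). The vasodilator peptide gene *Adm* was at 22.7, 32 and 21.6 TPM in LSECs and 1.48, 0.864 and 0.577 TPM in non-ECs (log2 fold change 3.75, SE 0.29, adjusted p = 5.4e-10). Both were low in every non-EC library, and the fractions did not overlap. *Ddit4*, an inhibitor of mTOR signaling, was at 24.4, 25.5 and 35.3 against 2.54, 2.13 and 3.47 TPM (log2 fold change 2.98, SE 0.26, adjusted p = 3.36e-09). *P4ha2* and *P4ha1*, catalytic subunits of collagen prolyl hydroxylase, were at 18.8, 17.7 and 13.8 against 2.75, 1.41 and 2.37 TPM (log2 fold change 2.50, SE 0.21) and 93.5, 84.8 and 97.3 against 30.2, 29.1 and 38.7 TPM (log2 fold change 1.47, SE 0.16). Collagen hydroxylase is a product of matrix-forming cells. Of the 8 mesenchymal and stellate markers summed above, 7 were also higher in control LSECs and 1 was lower. The part of those cells in the difference was not tested.

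Smaller differences in the same direction were found for the oxygen sensors and the ubiquitous HIF subunit. *Egln3* was at 13.1, 15.4 and 12.6 TPM in LSECs and 6.51, 5.01 and 6.56 TPM in non-ECs (log2 fold change 1.07, SE 0.30), and *Hif1a* at 98.1, 82.2 and 91.9 and 49.9, 32.9 and 47.7 TPM (log2 fold change 1.06, SE 0.25). *Egln1* was at 60.7, 57.5 and 58.4 and 34.9, 37 and 32.1 TPM (log2 fold change 0.75). In each of these the lowest LSEC library lay above the highest non-EC library. The same held for the histone demethylase *Kdm3a*, at 44.5, 39.5 and 40.5 against 27.7, 25.3 and 28 TPM (log2 fold change 0.60), and for *Pkm*, at 602, 724 and 608 against 323, 335 and 292 TPM (log2 fold change 1.02). *Eno2*, scarce in every library, was called (log2 fold change 0.89) but not after quantile normalization (adjusted p from 2.94e-05 to 0.172 over 15 alternatives, 1 of which lost the call). *Vegfa*, the endothelial growth factor, was also higher (log2 fold change 0.50, SE 0.16).

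*Hk1*, the hexokinase that red-cell precursors use, was the member with the largest deficit in LSECs, at 51, 49.7 and 44.6 TPM against 236, 237 and 227 TPM in non-ECs (log2 fold change -2.25, SE 0.19, adjusted p = 1.7e-09). The glucose transporter *Slc2a3* (GLUT3) was at 25.8, 22.1 and 18.5 TPM against 69.5, 54.3 and 70.5 TPM (log2 fold change -1.51, SE 0.26, adjusted p = 3.9e-05). Erythroid markers were lower in control LSECs, 532.8 to 1941 TPM in sum, than in control non-ECs, 2965 to 11170 TPM, and the part of erythroid RNA in these differences was not tested. The muscle-type phosphofructokinase *Pfkm* was at 22.3, 21.4 and 21.5 against 50.6, 55.2 and 48 TPM (log2 fold change -1.20, SE 0.15). *Pdk1*, which inhibits pyruvate dehydrogenase and so the conversion of pyruvate to acetyl-CoA, was at 36.4, 40.9 and 32 against 79.2, 90.4 and 73.5 TPM (log2 fold change -1.13, SE 0.13). For the lactate exporter *Slc16a3* the levels were 26, 33.6 and 25.5 and 58.7, 68.5 and 47.3 TPM (log2 fold change -1.01, SE 0.20). None of these 5 overlapped between the fractions.

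The cytokine gene *Mif* was at 392, 369.8 and 383 TPM in LSECs and 679, 652 and 601 TPM in non-ECs (log2 fold change -0.75), the mitochondrial adenylate kinase *Ak4* at 12.7, 16.7 and 13.5 and 23.2, 23.5 and 20.8 TPM (log2 fold change -0.62), and the platelet-type phosphofructokinase *Pfkp* at 9.74, 13.4 and 9 and 16.8, 14.8 and 17.1 TPM (log2 fold change -0.58). *Gapdh* was at 482, 408 and 452 and 728, 570.4 and 654 TPM (log2 fold change -0.54). *Ldha* (log2 fold change -0.49) and *Gpi1* (log2 fold change -0.36) completed the members lower in LSECs. Except for *Mif*, whose call was kept in all 16 alternatives, these modest deficits depended on scale. After TPM were rescaled without mitochondrial genes, which take more of an LSEC library, the calls of *Ak4*, *Pfkp*, *Gapdh*, *Gpi1* and *Ldha* were lost. *Pgam1* and *Higd1a* were called higher, and 14 members were higher and 6 lower. That fit called 9088 of all genes, where 9241 were called as deposited. The median over all genes moved to 0.16 and that of the members to 0.04. As deposited 15 of 38 estimates were positive, with 46.2% positive over all genes, and after rescaling 21 of 38 were. The estimates of *Hk2*, *Pfkfb3*, *Eno1*, *Pgk1*, *Aldoc* and *Bnip3*, none of them called, turned from negative to positive. With same-numbered libraries paired across fractions, 27 members and 9585 of all genes were called, where 9241 of all genes were called without pairing. *Slc2a1*, *Pfkl*, *Aldoa* and *Tpi1* joined (adjusted p = 0.0286, 0.00357, 0.021 and 0.00178, limma with the replicate block, against 0.14, 0.0835, 0.125 and 0.0825 without it). Over the 4 genotypes, 13 members were higher and 19 lower in LSECs, where 82.6% of all genes were called. After rescaling without mitochondrial genes 17 were higher and 13 lower, and after quantile normalization 28 were called, 13 of them higher. These fits called 11466 and 11505 of all genes, where 11382 were called as deposited. The replicate block added a call for *Pgk1* (adjusted p = 0.00104, against 0.0552 without it, limma). Among the 19, *Gpi1* (log2 fold change -0.29) had an estimate of 0.04 after quantile normalization.

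**Figure D1:**
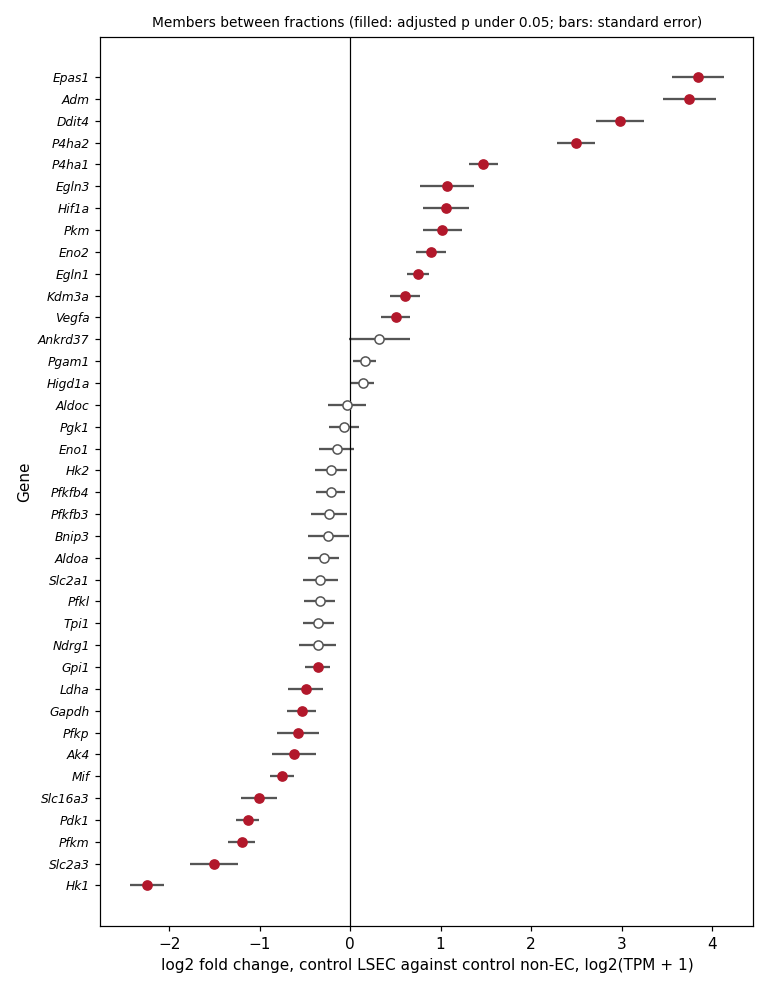
Difference between control LSECs and control non-ECs for the 38 members. The x axis is the log2 fold change of TPM + 1, positive where LSECs were higher, points are estimates from limma with bars of 1 SE (n = 3 libraries in each group), and filled points had an adjusted p under 0.05. *Epas1* (3.84) and *Adm* (3.75) lie farthest to the right and *Hk1* (-2.25) farthest to the left.

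In LSECs of *Chd4-ECko* embryos, most members lay slightly above controls, and a lactate exporter and a phosphofructokinase passed the test. *Slc16a3* and *Pfkp* rose (2 of 38 members, with 0.707% of all tested genes called) and none fell. Of 38 fold changes 33 were positive, with 51.6% positive over all genes. The members' median log2 fold change was 0.31, against 0.01 over all genes. In 11 members every mutant library lay above every control library, as did 8.7% of all genes, and no member lay entirely below.

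In LSECs of *Brg1-ECko* embryos no member was detectably different. None passed the test (limma, 2 members at an unadjusted p under 0.05, as were 9.68% of all genes), and 0.0223% of all genes did. Of 38 fold changes 21 were positive, with 65.2% positive over all genes. Their median was 0.02 against 0.08 over all genes. Every mutant library lay above every control library for *Hk2*, *Pfkfb4*, *Aldoc* and *Pfkm*, a share of members close to the 10.9% of all genes.

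In double mutant LSECs 7 members rose, namely the transporters *Slc2a3* and *Slc16a3*, the enzymes *Hk2* and *Pfkp*, the hydroxylase *Egln3*, the mitophagy receptor *Bnip3* and *Vegfa* (7 of 38, with 0.87% of all genes called). None fell, and 37 of 38 fold changes were positive, *Epas1* being the exception at -0.26. Over all genes 76.7% of fold changes were positive. The members' median log2 fold change was 0.49. All genes also leaned upward here, with a median of 0.16, and quantile normalization brought these medians to 0.38 and 0.00. In 28 of 38 members the 3 double mutant libraries lay above the 3 controls, as did 20.8% of all genes.

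**Figure D2:**
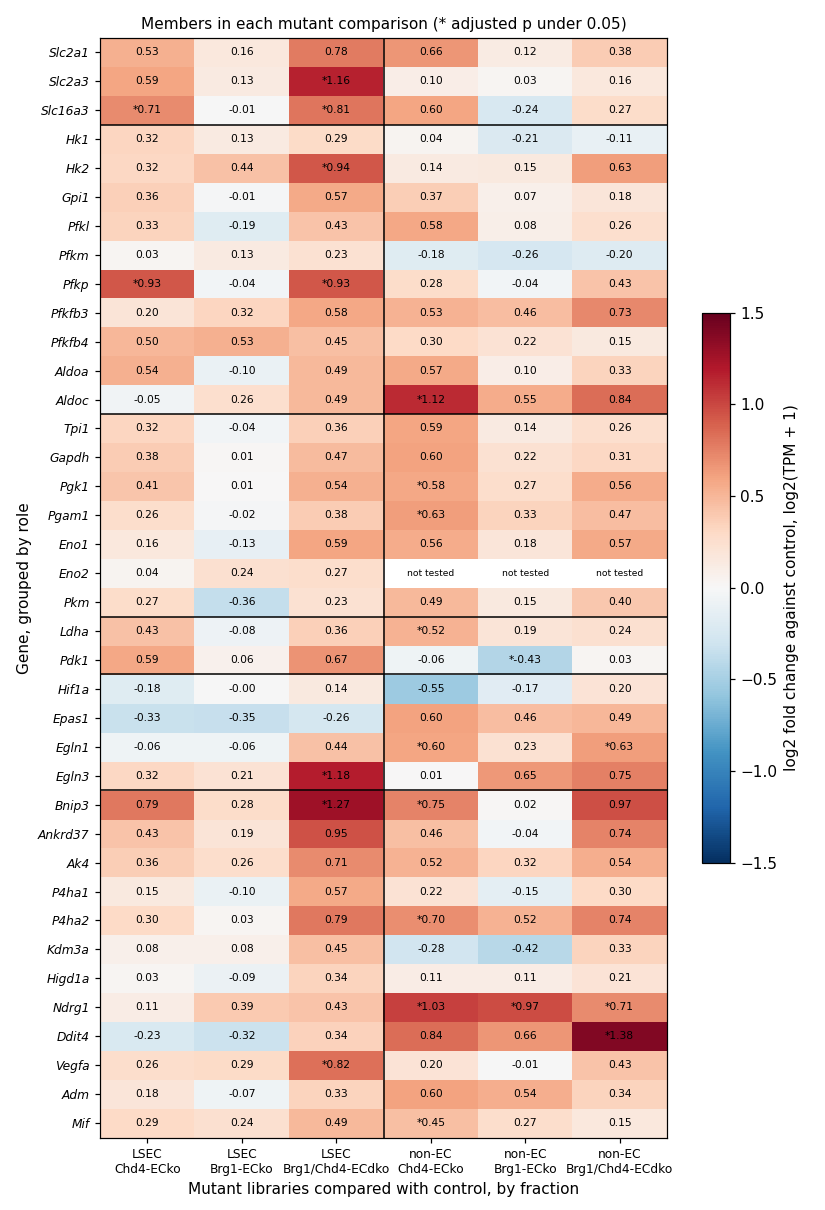
Log2 fold changes of TPM + 1 for the 38 members (rows, by role) in each mutant against control in LSECs and in non-ECs (columns), from limma with 3 libraries in each group. Color gives the fold change and an asterisk marks an adjusted p under 0.05. The double mutant LSEC column holds 7 asterisks, the *Chd4-ECko* non-EC column 9, and the *Brg1-ECko* LSEC column none.

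Among the transporters, *Slc16a3* (MCT4) was at 26, 33.6 and 25.5 TPM in control LSECs, 40.7, 46.1 and 53.8 TPM in *Chd4-ECko* LSECs, and double mutant LSECs had 44.6, 56.3 and 49.6 TPM. All 6 libraries of these mutants exceeded the highest control. It rose in *Chd4-ECko* (log2 fold change 0.71, SE 0.15, adjusted p = 0.042, limma, with adjusted p from 0.0106 to 0.282 over 16 alternatives, 7 of which lost the call) and in *Brg1/Chd4-ECdko* LSECs (log2 fold change 0.81, SE 0.15, adjusted p = 0.0186, with adjusted p from 0.0101 to 0.105 over 16 alternatives, 4 of which lost the call). In *Brg1-ECko* LSECs it was at 28.8, 27.9 and 27.1 TPM (log2 fold change -0.01, adjusted p = 0.986).

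*Slc2a3* was at 25.8, 22.1 and 18.5 TPM in controls and 44.5, 65.8 and 43.2 TPM in double mutants, where it rose (log2 fold change 1.16, SE 0.23, adjusted p = 0.0338, limma, with adjusted p from 0.00258 to 0.152 over 16 alternatives, 8 of which lost the call). In *Chd4-ECko* LSECs the 3 values were 25.5, 32.6 and 45.5 TPM (log2 fold change 0.59, adjusted p = 0.525). *Slc2a1* (GLUT1), the other glucose carrier, was at 34.9, 43.9 and 29.8 TPM in controls, 47, 52.9 and 56.8 TPM in *Chd4-ECko* and 47.7, 72 and 69.4 TPM in double mutants. Every library of these mutants was above the highest control, but neither test passed (adjusted p = 0.305 in *Chd4-ECko* and 0.0518 in double mutants, limma).

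*Hk2*, the inducible hexokinase, was the member with the smallest p in double mutant LSECs. It was at 34.3, 26.7 and 29.1 TPM in controls, 43.2, 37.4 and 42 TPM in *Brg1-ECko*, 41.2, 32.8 and 38.7 TPM in *Chd4-ECko* and 48.6, 57.6 and 70.0 TPM in double mutants. Double mutant libraries all exceeded every other LSEC library (log2 fold change 0.94, SE 0.15, adjusted p = 0.0105 against control, limma, with adjusted p from 0.00484 to 0.0689 over 16 alternatives, 2 of which lost the call). *Pfkp* was low in controls at 9.74, 13.4 and 9 TPM, and reached 17.1, 22.7 and 24.1 TPM in *Chd4-ECko* and 18.3, 25.1 and 20.2 TPM in double mutants. It rose in both (log2 fold change 0.93, SE 0.18, adjusted p = 0.0346 in *Chd4-ECko* and log2 fold change 0.93, SE 0.18, adjusted p = 0.0299 in double mutants, with adjusted p from 0.0106 to 0.222 over 16 alternatives, 6 of which lost the call, and adjusted p from 0.00972 to 0.141 over 16 alternatives, 5 of which lost the call, respectively), and no library of either overlapped the controls. *Brg1-ECko* libraries had 10.2, 11.1 and 9.39 TPM.

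*Pfkfb4* had the smallest p in the *Brg1-ECko* comparison, at 2.23, 2.53 and 3.09 TPM in controls and 4.76, 3.75 and 4.11 TPM in mutants (log2 fold change 0.53, adjusted p = 0.426, limma). The aldolase *Aldoa* was at 329.5, 378 and 323 TPM in controls and 423, 519 and 559.7 TPM in *Chd4-ECko*, without overlap. With replicate numbers as a block the adjusted p was 0.0492, without it 0.103 (log2 fold change 0.54, with adjusted p from 0.00638 to 0.5 over 16 alternatives). In this comparison the same-numbered libraries deviated together, and the block fit called 3 members and 131 of all genes (95 genes without the block).

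At the pyruvate steps, *Pkm* was at 602, 724 and 608 TPM in controls and 381, 604 and 542 TPM in *Brg1-ECko* LSECs (log2 fold change -0.36, adjusted p = 0.605, limma). *Pdk1* was at 36.4, 40.9 and 32 TPM in controls and 50.2, 50.9 and 64.7 TPM in *Chd4-ECko* (log2 fold change 0.59, adjusted p = 0.104), and at 58, 62.9 and 54.2 TPM in double mutants (log2 fold change 0.67, adjusted p = 0.0524). Neither gene passed, although the *Pdk1* libraries of both mutants lay above all 3 controls.

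*Egln3* (PHD3), itself a HIF target, was at 13.1, 15.4 and 12.6 TPM in control LSECs, 12.4, 16.5 and 19.8 TPM in *Brg1-ECko*, 13.6, 17.7 and 21.1 TPM in *Chd4-ECko* and 26.7, 38.5 and 32.4 TPM in double mutants. Double mutants were above every other LSEC library, and the gene rose against control (log2 fold change 1.18, SE 0.20, adjusted p = 0.0114, limma, with adjusted p from 0.00112 to 0.0743 over 16 alternatives, 4 of which lost the call). *Epas1* went the other way in estimate without passing, at 35.5, 43 and 29.9 TPM in controls and 21.8, 26.5 and 37.5 TPM in *Brg1-ECko* (log2 fold change -0.35, adjusted p = 0.598). *Hif1a* had log2 fold changes of -0.18 in *Chd4-ECko* and 0.14 in double mutant LSECs, neither of them called.

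*Bnip3*, which tags mitochondria for removal under hypoxia, had the largest fold change of any member in LSECs. It was at 49.2, 62.7 and 63 TPM in controls and 118, 197 and 121 TPM in double mutants (log2 fold change 1.27, SE 0.22, adjusted p = 0.0141, limma, with adjusted p from 0.0016 to 0.0774 over 16 alternatives, 3 of which lost the call). Replicate 2 of the double mutant was the highest, and all 3 were above the controls. In *Chd4-ECko* LSECs *Bnip3* was at 74.9, 104 and 132 TPM (log2 fold change 0.79, adjusted p = 0.169). *Vegfa* was at 60.9, 64.8 and 48.5 TPM in controls, 73.7, 64.2 and 74.9 TPM in *Brg1-ECko* LSECs, and at 86.5, 98.1 and 127 TPM in double mutants, where every library exceeded the controls. It rose in the double mutants (log2 fold change 0.82, SE 0.17, adjusted p = 0.0402, with adjusted p from 0.0127 to 0.205 over 16 alternatives, 10 of which lost the call). *Mif*, the last of the 6 smallest p in *Brg1-ECko* LSECs, was at 392, 369.8 and 383 TPM in controls and 564, 432 and 376 TPM in mutants (log2 fold change 0.24, adjusted p = 0.62).

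Calls in LSECs depended on single libraries. In the double mutant comparison, 1, 4 or 2 members were called without control replicate 1, 2 or 3, and 9, 1 or 0 without double mutant replicate 1, 2 or 3. Over all genes 117 were called with all libraries, and in these fits 47, 39 and 58, and 105, 49 and 24. Without *Brg1-ECko* replicate 1, the library rich in hepatoblast RNA, 13 members and 281 of all genes were called, and when TPM were rescaled without mitochondrial genes 10 members and 102 genes. For *Chd4-ECko*, with 95 of all genes called as reported, 4 members and 191 genes were called without its replicate 1, 2 members and 39 genes without control replicate 2, and no member and 29 to 51 genes without any of the other 4 libraries. The fold changes of the called members kept their sign in each of those fits.

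Blood-cell markers moved with these groups. The sum of 4 markers (*Ptprc* among them) was 50.6 to 73.3 TPM in control LSECs, 85.3 to 95.4 TPM in *Brg1-ECko*, 112.0 to 166.8 TPM in *Chd4-ECko* and 107.6 to 132.4 TPM in double mutant LSECs, with 2 of 4 called higher in each of the last 2 groups. Of 9 myeloid markers, 1 was called higher in *Chd4-ECko* LSECs and none in the others. The mitochondrial share also varied, at 24.5%, 20.6% and 24.6% in control LSECs, 31.5%, 20.4% and 14.1% in *Chd4-ECko* and 27.4%, 14.7% and 13.9% in double mutants. The part of either in the members' fold changes was not tested.

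Against *Chd4-ECko*, double mutant LSECs had higher estimates for 32 of 38 members, where 73.2% of all genes had higher estimates. The members' median log2 fold change was 0.24, with 0.13 over all genes. In 9 members the double mutant libraries lay entirely above, as in 13.6% of all genes. None was called (limma, 13 members at an unadjusted p under 0.05, as were 10.4% of all genes), with 0.0372% of all genes called. The smallest p belonged to *Egln3* (log2 fold change 0.86, SE 0.20, adjusted p = 0.331), followed by *Hk2* (log2 fold change 0.62, adjusted p = 0.331) and *Egln1* (log2 fold change 0.50, adjusted p = 0.389).

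The non-EC fraction, in which endothelial markers were low, also differed between genotypes. In *Chd4-ECko* non-ECs, 9 of 37 tested members rose (9.48% of all genes called) and none fell. Of 37 estimates 33 were positive, with 50.7% positive over all genes. Their median was 0.52 against 0.01 over all genes. *Eno2* was too low to be tested. The 9 covered 1 of 10 hexose enzymes (*Aldoc*), 2 of 6 triose enzymes (*Pgam1* and *Pgk1*), *Ldha*, *Egln1* and 4 of 12 other hypoxia-inducible genes (*Ndrg1*, *Bnip3*, *Mif* and *P4ha2*). In 19 members all mutant libraries were above all controls, as were 15.8% of all genes.

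*Brg1-ECko* non-ECs had 1 member that rose, *Ndrg1*, and 1 that fell, *Pdk1*, where 11.7% of all genes were called. Their median was 0.15, with 0.02 over all genes. In these, 7 members lay entirely above controls (21.9% of all genes) and 2 entirely below, *Pdk1* and *Kdm3a* (18% of all genes). In double mutant non-ECs *Ndrg1*, *Egln1* and *Ddit4* rose (3 of 37, with 0.581% of all genes called). Of 37 estimates 35 were positive, with 53.1% positive over all genes, and their median was 0.38 against 0.01 over all genes. All 3 double mutant libraries lay above the controls for 24 members, as for 16% of all genes, and below them for *Pfkm*, as for 8.01% of all genes.

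*Ndrg1*, a stress-responsive gene induced by hypoxia, rose in the non-ECs of all 3 mutants. It was at 51, 47.9 and 55.5 TPM in controls, 100.5, 104 and 113 TPM in *Chd4-ECko*, 87.4, 93 and 74.1 TPM in double mutants and 113, 94.3 and 99.2 TPM in *Brg1-ECko*. No mutant library overlapped the controls. By limma, its log2 fold changes were 1.03 in *Chd4-ECko* (SE 0.11, adjusted p = 0.0033), 0.71 in double mutants (SE 0.11, adjusted p = 0.0291) and 0.97 in *Brg1-ECko* (SE 0.11, adjusted p = 0.00128). The *Chd4-ECko* call had adjusted p from 0.00107 to 0.0316 over 15 alternatives, none of which lost the call. The double mutant call had adjusted p from 0.0191 to 0.147 over 15 alternatives, 5 of which lost the call, and the *Brg1-ECko* call adjusted p from 0.000818 to 0.00949 over 15 alternatives, none of which lost the call. These 3 comparisons share the control libraries.

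*Egln1* (PHD2), the main oxygen sensor, was at 34.9, 37 and 32.1 TPM in control non-ECs and rose to 51.3, 53.8 and 53.2 TPM in *Chd4-ECko* (log2 fold change 0.60, SE 0.11, adjusted p = 0.0102, limma, with adjusted p from 0.00327 to 0.0538 over 15 alternatives, 1 of which lost the call) and to 52.5, 64 and 47.3 TPM in double mutants (log2 fold change 0.63, SE 0.11, adjusted p = 0.0352, with adjusted p from 0.0176 to 0.147 over 15 alternatives, 7 of which lost the call). In *Brg1-ECko* it was at 39.5, 41.1 and 41.4 TPM, above the controls in all 3 libraries but not called (log2 fold change 0.23, adjusted p = 0.194). *Bnip3* was at 67.5, 78.5 and 61.5 TPM in controls, 114, 119.5 and 114 TPM in *Chd4-ECko* (log2 fold change 0.75, SE 0.21, adjusted p = 0.0467, with adjusted p from 0.0183 to 0.135 over 15 alternatives, 9 of which lost the call) and 132, 196 and 96.4 TPM in double mutants (log2 fold change 0.97, adjusted p = 0.059). Both groups were clear of the controls.

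*P4ha2* was scarce in control non-ECs, at 2.75, 1.41 and 2.37 TPM, and rose to 4.4, 3.44 and 4.39 TPM in *Chd4-ECko* (log2 fold change 0.70, SE 0.20, adjusted p = 0.049, limma, with adjusted p from 0.0173 to 0.172 over 14 alternatives, 10 of which lost the call). The *Brg1-ECko* libraries had 3.95, 3.2 and 3.3 TPM (log2 fold change 0.52, adjusted p = 0.112). *Mif* was at 679, 652 and 601 TPM in controls and 698, 992 and 984 TPM in *Chd4-ECko* (log2 fold change 0.45, SE 0.13, adjusted p = 0.0475, with adjusted p from 0.00146 to 0.19 over 15 alternatives, 10 of which lost the call). *Ddit4* was likewise low in controls, at 2.54, 2.13 and 3.47 TPM, and was at 3.23, 7.69 and 4.28 TPM in *Brg1-ECko* (log2 fold change 0.66, adjusted p = 0.124) and 8.07, 11 and 7.06 TPM in double mutants (log2 fold change 1.38, SE 0.26, adjusted p = 0.0466, with adjusted p from 0.022 to 0.195 over 15 alternatives, 10 of which lost the call). Its double mutant libraries did not overlap the controls.

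The 4 pathway enzymes *Pgam1*, *Pgk1*, *Aldoc* and *Ldha* rose in *Chd4-ECko* non-ECs. *Pgam1*, the phosphoglycerate mutase, was at 313, 289.5 and 283 TPM in controls and 386, 471 and 522 TPM in mutants (log2 fold change 0.63, SE 0.13, adjusted p = 0.0165, limma, with adjusted p from 0.0018 to 0.0802 over 15 alternatives, 5 of which lost the call). *Pgk1*, which makes the first ATP of the payoff steps, was at 496, 478 and 458 and 598, 707 and 863 TPM (log2 fold change 0.58, SE 0.15, adjusted p = 0.0355, with adjusted p from 0.00348 to 0.122 over 15 alternatives, 7 of which lost the call). *Aldoc*, an aldolase typical of brain, was scarce, at 5.01, 5.56 and 4.2 and 10.5, 11.4 and 13.7 TPM (log2 fold change 1.12, SE 0.23, adjusted p = 0.0188, with adjusted p from 0.00578 to 0.0663 over 15 alternatives, 4 of which lost the call). *Ldha* was at 934, 1072 and 931 and 1122, 1420 and 1736 TPM (log2 fold change 0.52, SE 0.15, adjusted p = 0.0494, with adjusted p from 0.0025 to 0.18 over 15 alternatives, 10 of which lost the call). In all 4 the mutant libraries were above the controls, and replicate 3 was the highest.

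*Pgam1* was at 372, 413 and 334 TPM in *Brg1-ECko* non-ECs (log2 fold change 0.33, adjusted p = 0.115, limma) and *Pgk1* at 697, 780.4 and 634 TPM in double mutants (log2 fold change 0.56, adjusted p = 0.112). *Pfkfb3* was at 21.7, 15.5 and 25 TPM in controls, 31.4, 24 and 30.1 TPM in *Brg1-ECko* (log2 fold change 0.46, adjusted p = 0.115) and 31.4, 34.1 and 37.8 TPM in double mutants (log2 fold change 0.73, adjusted p = 0.0859). None of these passed. *Pdk1* was at 79.2, 90.4 and 73.5 TPM in controls and fell to 56.8, 64.2 and 57.7 TPM in *Brg1-ECko* non-ECs (log2 fold change -0.43, SE 0.10, adjusted p = 0.0167, with adjusted p from 0.0123 to 0.0714 over 15 alternatives, 3 of which lost the call).

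**Figure D3:**
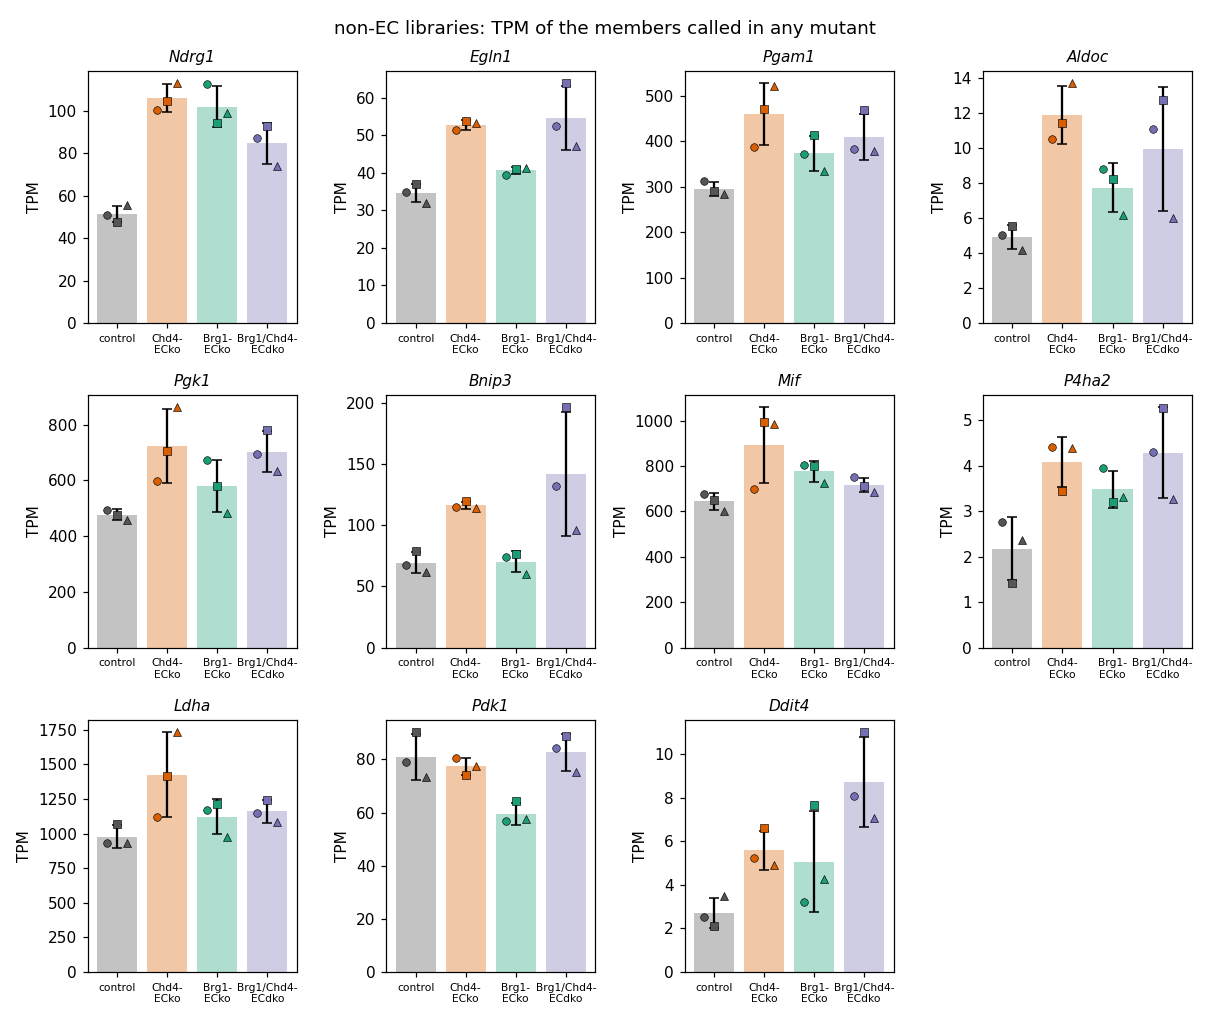
TPM of the 11 members called in at least 1 mutant in non-ECs, in each of the 12 non-EC libraries. The x axis of each panel gives the genotype and the y axis TPM, symbols mark replicates 1 (circle), 2 (square) and 3 (triangle), and bars with whiskers give the mean ± SD (n = 3). *Ndrg1* is above control in every mutant library, and *Pdk1* is the panel where *Brg1-ECko* lies below control.

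Single libraries also weighed on the non-EC counts. For *Chd4-ECko*, leaving out its replicate 1 gave 21 called members (19 higher and 2 lower), and the count over all genes also moved, to 4592 from 1159. Leaving out any other library of the comparison gave 2 or 3 members and 359 to 452 genes. For *Brg1-ECko*, 1 member was called without control replicate 2 or without its replicate 1 or 3, where 689, 568 and 684 of all genes were called (1426 as reported). For the double mutant, 2 members and 8 genes were called without its replicate 3, and no member and 0 to 14 genes without any other library of the comparison (71 genes as reported). Hepatoblast markers moved with the mutants, with 16930 to 18980 TPM in sum in control non-ECs, 25480 to 34730 TPM in *Chd4-ECko*, 25180 to 36550 TPM in *Brg1-ECko* and 21790 to 28890 TPM in double mutants, and 6, 7 and 1 of 8 markers were called higher. Erythroid markers were at 2965 to 11170 TPM in controls and at 3389, 4430 and 12360 TPM in *Chd4-ECko*. Their part in the members' changes was not tested.

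Whether a mutant's effect differed between fractions was tested as an interaction over all 24 libraries. No member was called for *Chd4-ECko*, where 1.02% of all genes were (limma, 6 members at an unadjusted p under 0.05, as were 19.1% of all genes). None was called for *Brg1-ECko*, where 1.04% were (2 members and 17.9% of all genes unadjusted), or for the double mutant, where 0.0581% were (3 members and 7.57% unadjusted). Calls made in 1 fraction, such as those of *Hk2* or *Ndrg1*, are therefore not shown to be particular to it. The smallest p in the *Chd4-ECko* interaction belonged to *Aldoc* (LSEC minus non-EC -1.17, adjusted p = 0.0641), and with LSEC and non-EC libraries of the same number as a block its adjusted p was 0.0265 (adjusted p from 0.0137 to 0.166 over 22 alternatives). *Egln1* (-0.66, adjusted p = 0.0642) and *Pdk1* (0.64, adjusted p = 0.0844) followed. *Pdk1* also had positive interaction estimates in *Brg1-ECko* (0.50, adjusted p = 0.161) and in double mutants (0.64, adjusted p = 0.243). For *Chd4-ECko*, 4 members were called without non-EC *Chd4-ECko* replicate 1, in a fit that called 1913 of all genes where 140 were called with all libraries. Without LSEC *Brg1-ECko* replicate 1, 4 members and 367 of all genes were called.

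The 19 genes of the hexose, triose and pyruvate-branch groups, *Ldha* and *Pdk1* included, were also summed in each library, as a description without a test. *Eno1* is in the sum but its near copy *Eno1b* is not. Mean *Eno1b* in LSECs was 169.7 TPM in controls, 152.1 in *Brg1-ECko*, 389.5 in *Chd4-ECko* and 58.4 in double mutants. In non-ECs, in the same order, it was 224.5, 367.3, 611.5 and 136.6 TPM. The order of the mutants' sums may therefore depend on leaving it out. The sum was 4130 to 4726 TPM in control LSECs, 3725 to 4342 TPM in *Brg1-ECko*, 4525 to 6634 TPM in *Chd4-ECko* and 5356 to 6604 TPM in double mutants. In non-ECs it was 4972 to 5166 TPM in controls, 4943 to 6358 TPM in *Brg1-ECko*, 5888 to 9019 TPM in *Chd4-ECko* and 5999 to 7333 TPM in double mutants. Controls were close together in non-ECs, while the *Chd4-ECko* libraries were spread widely in both fractions, replicate 1 being the lowest and replicate 3 the highest in each. Within *Chd4-ECko* LSECs the mitochondrial share ran in the opposite order, 31.5%, 20.4% and 14.1%. In *Chd4-ECko* non-ECs it was 7.37%, 3.43% and 2.33%, again opposite to the sum, where controls had 7.69%, 6.17% and 7.51%. Its part in the sums was not tested.

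**Figure D4:**
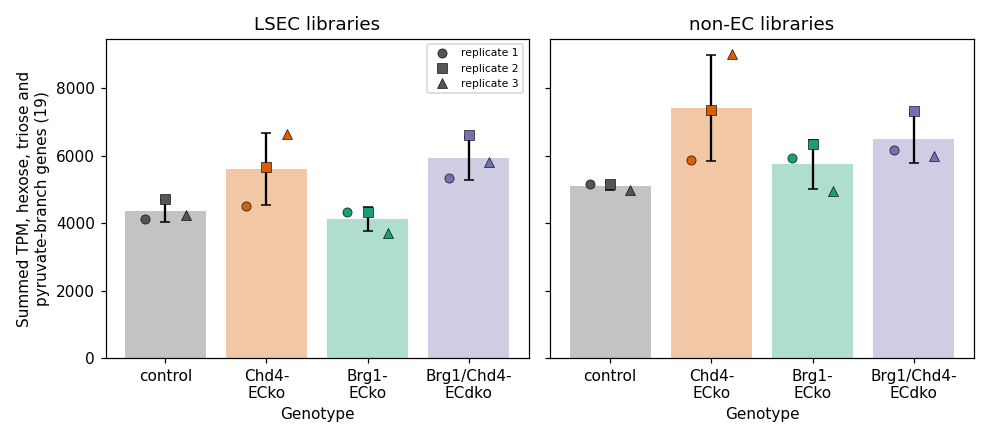
Summed TPM of the 19 hexose, triose and pyruvate-branch genes in each library, by genotype, for LSECs and non-ECs. *Eno1b* is not in the sum. The y axis is TPM, symbols mark the replicate number, and bars with whiskers give the mean ± SD (n = 3). *Chd4-ECko* libraries range from 4525 to 6634 TPM in LSECs and from 5888 to 9019 TPM in non-ECs.

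Beyond the 38 members, 78 further genes of glucose handling, HIF regulation and hypoxia response were listed, of which 71 were tested in LSECs and 68 in non-ECs. In LSECs, *Hk3*, a hexokinase of myeloid cells, rose in *Chd4-ECko* (7.42, 5.5 and 7.98 TPM in controls, 11.5, 19.6 and 21.8 TPM in mutants, log2 fold change 1.20, SE 0.23, adjusted p = 0.0296, limma), the only further gene called there, where 0.707% of all genes were called. Its call was lost in 7 of 16 alternatives. With the replicate block *Ndufa4l2*, which encodes a hypoxia-inducible mitochondrial protein, was also called (log2 fold change 1.08, adjusted p = 0.0482 with the block and 0.402 without it). None was called in *Brg1-ECko* (limma, 13 at an unadjusted p under 0.05, as were 9.68% of all genes), where 0.0223% of all genes were called. In double mutant LSECs 3 of 71 rose and none fell, with 0.87% of all genes called: the repressor gene *Bhlhe40* (log2 fold change 0.90), the disulfide oxidase gene *Ero1a* (0.84) and *Mxi1*, a MAX-binding antagonist of MYC (0.70). These calls were lost in 5 of 16, 9 of 16 and 7 of 16 alternatives. Over all tested further genes, the median log2 fold change was 0.07 in each single mutant and 0.32 in double mutants. Myeloid markers, summed, were at 557.3 to 719.1 TPM in control and 710.3 to 1299 TPM in *Chd4-ECko* LSECs, and their part in the rise of *Hk3* was not tested.

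In non-ECs, 10 further genes rose and 4 fell in *Chd4-ECko* (of 68, with 9.48% of all genes called). The largest were the transferrin receptor *Tfrc* (-1.33), *Pgm1*, which links glycogen to glycolysis (0.90), *Ldhb*, the heart-type lactate dehydrogenase (0.89), the collagen lysyl hydroxylase *Plod1* (0.88), the carbonic anhydrase *Car12* (0.87) and *Bhlhe40* (0.85). The calls of *Car12* and *Tfrc* were lost in 9 of 14 and 6 of 15 alternatives, those of *Ldhb*, *Plod1* and *Bhlhe40* in 1 of 15 each, and that of *Pgm1* in none. In *Brg1-ECko*, 13 rose and 4 fell (11.7% of all genes called), with the metallothioneins *Mt2* (1.17) and *Mt1* (1.06), *Tfrc* (-1.16), the hexokinase *Hkdc1* (1.04), *Plod1* (0.98) and *Ldhb* (0.97) at the top. The calls of *Tfrc*, *Mt2* and *Mt1* were lost in 7 of 15, 4 of 15 and 3 of 15 alternatives, and the others in none. Double mutants had 3 that rose (0.581% of all genes called), *Ldhb* (0.93), *Bhlhe40* (0.90) and *Pgm1* (0.70). These calls were lost in 8 of 15, 8 of 15 and 6 of 15 alternatives. *Hkdc1* rose in both single mutants, in the same libraries where hepatoblast markers were higher.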

How the data were processed

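Poly(A) RNA-seq of LSECs and non-ECs from E12.5 livers was deposited as a gene table of TPM for 24 libraries, computed by the authors with CLC Genomics Workbench on GRCm39 (mm39). Its version and the handling of multiply mapped reads are not given in the sources used here. TPM sum to 1000000 per library, so the realised depth of each library is unknown. The study's methods state only a planned depth. The 8 columns of the authors' group means matched the replicate means and were not tested. Of the members, 37 were found by exact name and *Aldoa* by Ensembl ID. The members and lists were chosen with earlier results of these data known.

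The test was limma (3.58.1, under R 4.3.3) with a variance trend, two-sided, applied to log2(TPM + 1), a scale that understates changes of low genes. Genes had to reach 1 TPM in 3 or more libraries of a model, with Benjamini-Hochberg adjustment over all of them: 13444 genes in 12 LSEC libraries, 12223 in 12 non-EC libraries and 13775 in all 24. A gene was called at an adjusted p under 0.05. Scripts were tested on simulated data with known changes. Per-library values were given for members called in a mutant, for the 6 with the smallest p where fewer were called, and for the 20 largest differences between control fractions. Further pathway genes were named as the 6 largest called per comparison, or as isozymes of a member.

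The fits reported had no replicate block. Every same-numbered pair's deviations correlated above 0.1 for *Chd4-ECko* with control LSECs (0.38, 0.23 and 0.11), double mutant with *Chd4-ECko* LSECs, and LSECs with non-ECs of each genotype (0.29, 0.41 and 0.34 in controls). The labels do not state a pairing, and for these comparisons the block fit is given beside a result whose call it changed. Alternatives were another pseudocount (0.1 TPM), no filter or a minimum mean TPM of 5, quantile normalization, rescaling without mitochondrial (and globin) genes, no trend, the replicate block, the compared groups alone, a log2 threshold of 1, and leaving out each library.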

Additional observations from a re-analysis of the deposited data

Results flagged for a closer look

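*Ldhb* and *Tfrc*, genes of the further list, had mutant effects that differed between the fractions by the interaction test (limma, all 24 libraries). *Ldhb* was at 115, 153 and 107 TPM in control LSECs and 93.3 to 115.3 TPM in mutant LSECs, while it was at 58.6, 39.9 and 66 TPM in control non-ECs and 95.1 to 112.5 TPM in mutant non-ECs. The effect in LSECs minus that in non-ECs was -1.13 for *Chd4-ECko* (adjusted p = 0.017, 0.0498 with the replicate block), -1.11 for *Brg1-ECko* (adjusted p = 0.0133, 0.0534 with the block) and -1.18 for *Brg1/Chd4-ECdko* (adjusted p = 0.0452, 0.166 with the block). These 3 interactions share the same control libraries, and their calls were lost in 2 of 22, 3 of 21 and 14 of 22 alternatives, in that order. For *Tfrc* the difference was 1.97 in *Chd4-ECko* (adjusted p = 0.0317, 0.0363 with the block), from log2 fold changes of 0.64 in LSECs and -1.33 in non-ECs, and the call was lost in 10 of 22 alternatives. *Tfrc* is a gene of red-cell precursors, and the erythroid marker sum was 532.8 to 1941 TPM in control LSECs, 692.1 to 1910 TPM in *Chd4-ECko* LSECs, 2965 to 11170 TPM in control non-ECs and 3389 to 12360 TPM in *Chd4-ECko* non-ECs. Its part in the difference was not tested.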

How the results depend on the processing

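Over 123 results for named genes, 2204 alternative fits gave 1919 with the same direction and call, 257 with the call lost and 28 with a call gained. The pool includes differences between fractions, and results not called as reported, which could not lose a call. Calls of members in a mutant against control were lost in 0 of 15 alternatives (*Ndrg1*, non-ECs of each single mutant) to 10 of 14 (*P4ha2*, *Chd4-ECko* non-ECs). None of the 2204 changed direction, but results outside that count did. Of 453 member estimates over all comparisons, 34 changed sign under quantile normalization or rescaling without mitochondrial (and globin) genes. Of the 34, 1 was called as reported, *Gpi1* over the 4 genotypes (-0.29, 0.04 after quantile normalization). With *Eno1* and its near copy *Eno1b* summed, an alternative chosen after seeing the data, the *Eno1* estimate turned from 0.43 to -0.12 in double mutant against *Chd4-ECko* LSECs and from 0.02 to -0.026 in the double mutant interaction, and *Eno1* was called in *Chd4-ECko* non-ECs. The causes were not tested.

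The number of members called moved as follows, with the number of all genes called by the same fit in parentheses. Counts at the log2 threshold of 1 are given without that number, so their drop cannot be set against all genes. *Chd4-ECko* LSECs had 2 (95), with 0 (67) without a filter on low values, 1 (108) without the variance trend, 1 (148) with the compared groups alone and 0 at a log2 threshold of 1. Double mutant LSECs had 7 (117), with 15 (313) with the compared groups alone and 3 at the threshold. *Chd4-ECko* non-ECs had 9 (1159), with 4 (777) without a filter, 16 (1910) after quantile normalization, 5 (922) after rescaling without mitochondrial genes, 3 (165) with the compared groups alone and 2 at the threshold. *Brg1-ECko* non-ECs had 2 (1426), with 4 (2069) with the compared groups alone and 0 at the threshold. Double mutant non-ECs had 3 (71), with 1 at the threshold. Double mutant against *Chd4-ECko* LSECs had 0 (5), with 1 (69) with the compared groups alone. Control fractions had 23 (9241), with 13 at the threshold, and the fractions over the 4 genotypes had 32 (11382), with 10. The *Chd4-ECko* interaction had 0 (140), with 2 (319) after quantile normalization, 1 (204, and 216 without globin genes too) after each rescaling and 2 (90) with the compared groups alone.

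With the replicate block, 3 (131), 0 (11) and 9 (164) members were called in *Chd4-ECko*, *Brg1-ECko* and double mutant LSECs, 10 (1438), 2 (1603) and 5 (301) in the non-ECs of these mutants, 0 (7) in double mutant against *Chd4-ECko* LSECs, 27 (9585) between control fractions and 33 (11576) over the 4 genotypes, and 1 (131), 0 (98) and 0 (8) in the interactions. The block moved no other member count by over 1.5 times than those of double mutant non-ECs and the *Chd4-ECko* interaction.

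Leaving out each library in turn gave 0 to 4 members (29 to 191 of all genes) in *Chd4-ECko* LSECs. In double mutant LSECs it gave 0 to 13 (24 to 281 genes). The 13 came without *Brg1-ECko* replicate 1, chosen after seeing the data, and 9 came without double mutant replicate 1. In non-ECs it gave 2 to 21 (359 to 4592 genes) in *Chd4-ECko*, 1 to 2 (568 to 1233) in *Brg1-ECko* and 0 to 2 (0 to 14) in double mutants. Between control fractions it gave 19 to 25 (8469 to 8729 genes), and over the 4 genotypes 31 to 33 (11182 to 11566 genes). In the *Chd4-ECko* interaction it gave 0 to 4 (16 to 1913). It gave 0 throughout in *Brg1-ECko* LSECs, in double mutant against *Chd4-ECko* LSECs and in the other two interactions. The realised depth is unknown, so the counting error of low members could not be given.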

Other observations

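*Eno1b*, a near-identical copy of *Eno1*, was singled out after its values were seen. In LSECs it was at 174, 310.4 and 24.4 TPM in controls, 17.6, 202 and 236 TPM in *Brg1-ECko*, 172, 531 and 465 TPM in *Chd4-ECko* and 129.5, 23.3 and 22.6 TPM in double mutants. In non-ECs, in the same order of genotypes, it was at 260.2, 398 and 14.9 TPM, 30.5, 492 and 580 TPM, 258, 817 and 759.6 TPM and 347, 33.8 and 28.8 TPM. Control replicate 3, *Brg1-ECko* replicate 1 and double mutant replicates 2 and 3 were low in both fractions, and the same-numbered LSEC and non-EC libraries were low or high together. No *Chd4-ECko* library was low.

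Between control fractions, 25 of 72 tested further pathway genes were higher in LSECs and 24 lower, against 31.3% and 35.8% of all genes. With the replicate block 50 further genes and 9585 of all genes were called, where 9241 of all genes were called without it. *Pck2* and *Nrn1* joined (adjusted p = 0.0191 and 0.00183, against 0.109 and 0.0802 without the block, limma) and *Insig2* dropped out (0.0512 against 0.0324). The lysyl oxidase genes *Lox* (log2 fold change 3.93, limma) and *Loxl2* (2.43), the collagen lysyl hydroxylase *Plod2* (2.87) and the HIF partner *Arnt2* (2.45) were higher in LSECs. The liver and red-cell pyruvate kinase *Pklr* (-3.79) and *Tfrc* (-2.90) were lower. *Pkm* and *Pklr*, which catalyze the same step, thus differed in opposite directions.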
